A study of Danaus plexippus with 32 samples.

Results

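Among the genes expressed in monarch butterfly (Danaus plexippus) brains, 42 stood out as higher in female than in male libraries across genotypes and times of day. They were taken from 10034 expressed genes, leaving aside genes on the assembly scaffolds DPSCF300001 (314 expressed genes) and DPSCF300012 (64 expressed genes). The 42 genes were chosen by measured values. A gene had to reach 3 FPKM (fragments per kilobase of gene length, relative to library depth) in any wild-type library. Its female minus male difference, on log2(FPKM + 1) with each library centred on its median gene, had to be above 0 in at least 14 of 16 genotype-by-time groups and at least 0.4 on average. Since every library entered this choice, the sex difference of these genes is a description without a test. The added 1 shrinks the log2 differences of weakly expressed genes.

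The libraries came from wild-type monarchs (WT) and from 2 knockout strains in which the circadian clock does not function, one lacking functional CRY2, a circadian repressor (Cry2KO), and one lacking functional CLK, a circadian activator (ClkKO). WT brains were taken at 8 times, 3 h apart from ZT1 to ZT22 (ZT, Zeitgeber Time, counts the hours since lights on), and knockout brains at 4 of these, ZT4, ZT10, ZT16 and ZT22. All adults had been entrained for at least 7 days to a 15 h light and 9 h dark cycle, and the brains were dissected free of eye photoreceptors. Each of the 16 groups held 1 male library, labelled replicate 1, and 1 female library, labelled replicate 2, each from 3 pooled brains, so that sex and anything else tied to the replicate number cannot be told apart.

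In butterflies and moths females carry a Z and a W sex chromosome and males a pair of Z chromosomes, so that females alone carry W-linked genes. Genes on other chromosomes can also be expressed at different levels in the sexes, in the brain as in other tissues. The brain is a mixture of neurons and glia, and in such bulk RNA fewer cells of a type and less RNA per cell cannot be told apart.

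Reads on genes, recovered from the 95% interval deposited with each value, ranged from 2848069 to 4456322 per library. The female library had more of them in 8 of 8 WT pairs, 4 of 4 Cry2KO pairs and 1 of 4 ClkKO pairs. In ClkKO the male library was the deeper one at ZT4, ZT16 and ZT22. The WT ZT22, Cry2KO ZT4 and ClkKO ZT22 groups held the fewest genes above 0, with 35 of 42 each. Summed FPKM of short lists of neuronal, glial, eye, muscle, cuticle, cell division and heat shock genes overlapped between the sexes for all 7 lists, and the sum was higher in the female library of 5 to 11 of 16 groups. The neuronal list of 7 genes, for example, summed to between 345.7 and 477.5 in female and between 313.7 and 513.3 in male libraries. The sum of 313.7 belonged to the ClkKO ZT4 male library, whose median log2(FPKM + 1) of 3.79 was the lowest of all 32 libraries. The neuronal, glial, eye, muscle, cuticle and cell division genes came from the study's list of rhythmic genes, chosen on these same WT libraries. The heat shock genes were those that the study annotates, and its gene lists hold only genes that it called rhythmic in WT. Sums can hide single genes that go opposite ways. Among the 5 glial genes the mean difference ran from -0.27 (Mdr65) to 0.42 (Tret1-1), and 0 were above 0 in at least 14 groups. No listed gene was at 0 in every library and none was among the 42 genes, and their part in the sex difference was not tested. Cry2 RNA (DPOGS208079) lay between 18.5 and 34.6 FPKM in WT and between 22.1 and 23.9 FPKM in Cry2KO, so that its level does not check the labels, and Clk RNA was not analysed here.

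Of the 42 genes, 14 were above 0 in all 16 groups, 14 in 15 groups and 14 in 14 groups. Together, 42 of 672 single differences were not above 0. Mean differences ran from 0.40 to 2.34, and 2 genes reached at least 2 log2 units, 3 lay between 1 and 2, and 37 lay under 1. The mean female FPKM was at least 2 times the mean male FPKM for 10 genes and under 1.5 times for 18 genes. For 7 genes every one of the 16 female libraries was above every one of the 16 male libraries in FPKM, which held for 0.0698% of the 10034 genes and lies close to what the rule itself asked for. The same thresholds applied in the opposite direction gave 35 male-high genes. On the 2 scaffolds set aside they gave 6 female-high and 18 male-high genes.

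**Figure D1:**
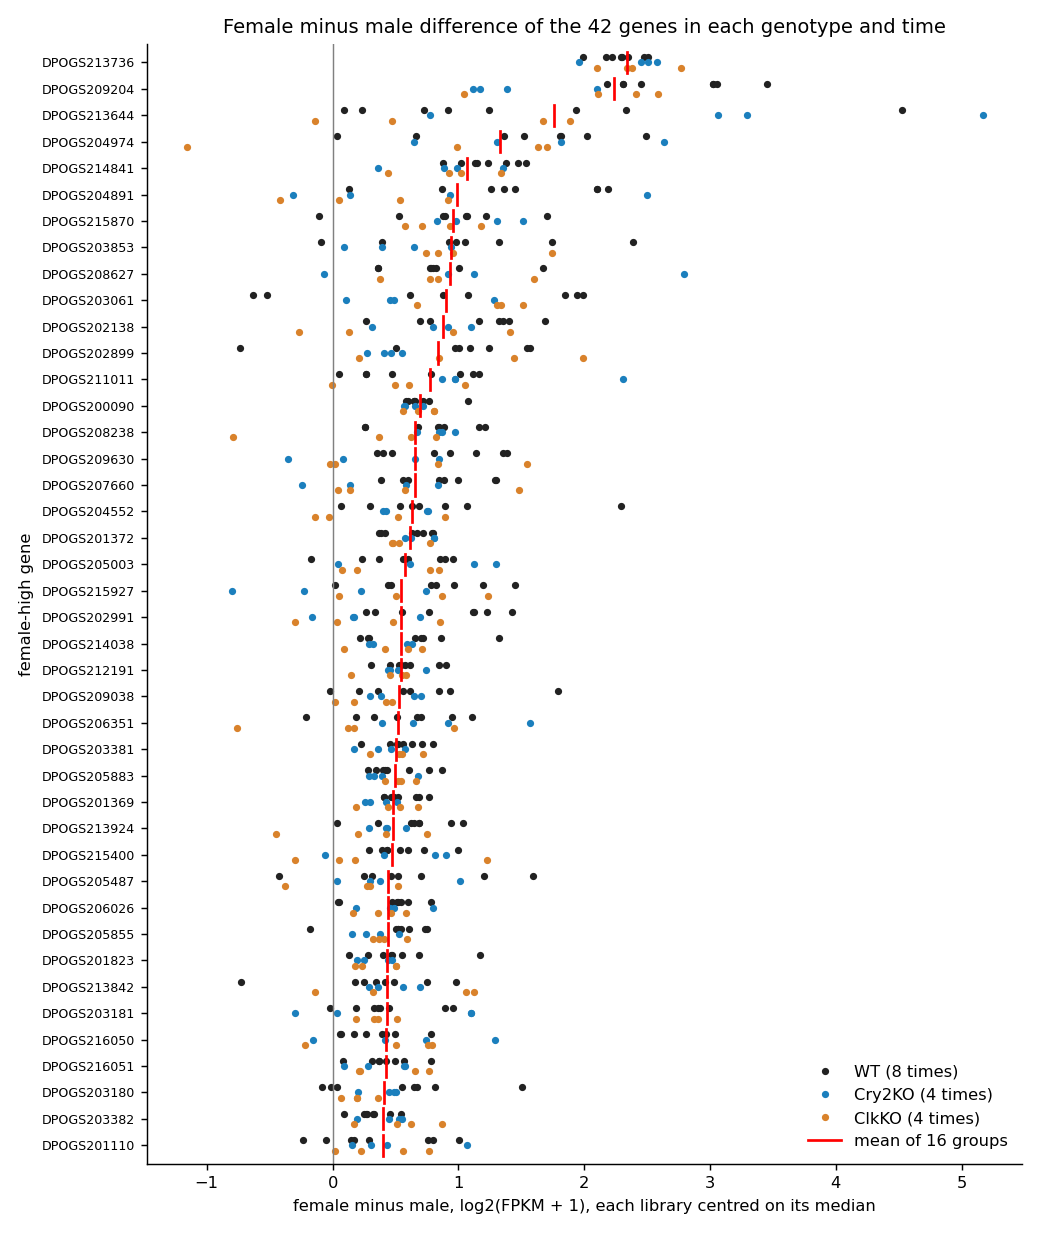
Female minus male difference of log2(FPKM + 1) for each of the 42 genes (rows, ordered by the mean over 16 groups, red tick), with 1 point for each group of WT (black, 8 times), Cry2KO (blue, 4 times) and ClkKO (orange, 4 times). The uppermost gene, DPOGS213736, lies near 2.34 in all groups, whereas DPOGS213644 spreads from -0.14 to 5.17.

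Only 4 of the 42 genes were seldom read in males. DPOGS213736 (assembly v3, scaffold DPSCF300619, positions 2734 to 6137, the only expressed gene of that scaffold) had between 2.88 and 5.95 FPKM in the 16 female libraries with a median of 4.50. It was listed at 0 in 14 of 16 male libraries and at 0.0910 and 0.0690 FPKM in WT ZT13 and ClkKO ZT10 males. These values rest on 970 female and 2 male reads, so that the share of reads was 422 times higher in females (95% interval 116 to 3487, exact, counting error only). The gene was chosen on these same libraries, so that the interval describes precision and is no test of the sex difference. The sexes did not overlap in any genotype, and the mean difference was 2.29 ± 0.17 in WT (SD, n = 8), 2.37 ± 0.28 in Cry2KO and 2.40 ± 0.28 in ClkKO (SD, n = 4 each).

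DPOGS209204 (DPSCF300061, 808438 to 816762) had a median of 5.66 FPKM in females, between 1.10 and 9.87, and was listed at 0 in 10 of 16 male libraries, with 0.747 FPKM as the highest male value. Again all females were above all males. Its female level varied by genotype, from 3.90 to 9.87 FPKM in WT and 2.66 to 7.50 in ClkKO, but from 1.10 to 3.58 in Cry2KO. Its reads numbered 219 in females and 7 in males.

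DPOGS213644 (DPSCF300165, 50630 to 56912) differed from these genes in its spread among females. Its female FPKM was 32.4 in Cry2KO at ZT16, 22.3 in WT at ZT1 and 9.44 in Cry2KO at ZT4, yet 0.152 in WT at ZT19 and 0.162 in WT at ZT4. In males it was at 0 in 9 of 16 libraries and at most 0.180 FPKM. Thus its high mean difference of 1.76 ± 1.57 (SD, n = 16) rested on some female pools, and in ClkKO at ZT4 the centred difference was -0.14. There the female value, 0.205 FPKM, was above the male value, 0.0717 FPKM, before centring. DPOGS204974 (DPSCF300123, 233963 to 235557) had only 56 female and 3 male reads over all libraries. It was at 0 in 2 female and 14 male libraries, and its single values have little precision, with a share of reads 16.2 times higher in females (95% interval 5.28 to 81.1, exact, counting error only). Here too the interval is no test, since these libraries served to choose the gene. In WT at ZT16 both libraries were at 0, and this group counted as above 0 (0.03) through the centring alone.

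**Figure D2:**
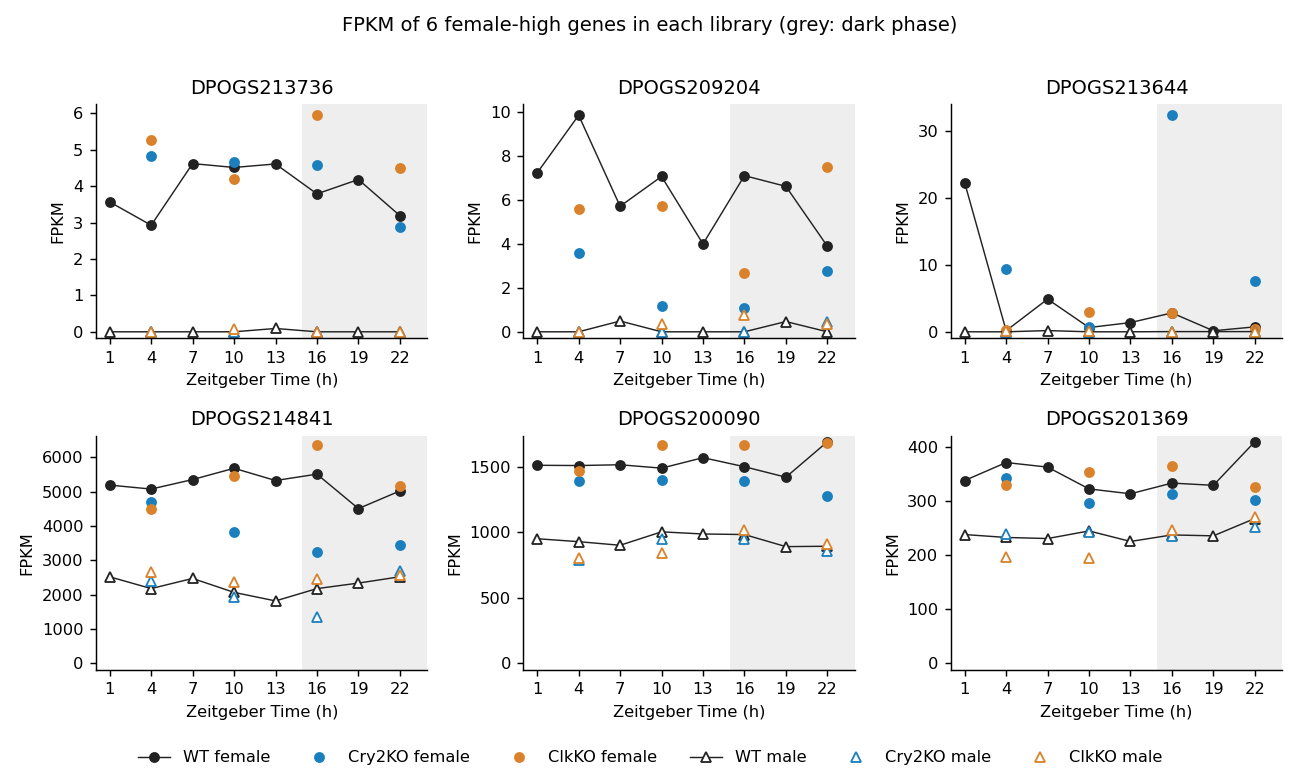
FPKM of 6 of the genes in every library against Zeitgeber Time, with females as filled circles, males as open triangles, WT joined by lines in black, Cry2KO in blue and ClkKO in orange, and the dark phase in grey. Males lie at or near 0 for the upper 3 genes, and for the lower 3 genes (DPOGS214841, DPOGS200090 and DPOGS201369) every female library lies above every male library.

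Abundant genes were among them as well. DPOGS214841 (DPSCF300091, 350169 to 352228) had a mean of 4898 ± 833 FPKM in female and 2283 ± 353 FPKM in male libraries (SD, n = 16 each). The lowest female value, 3231 FPKM in Cry2KO at ZT16, was above the highest male value of 2690 FPKM. Female levels lay between 4507 and 5682 FPKM in WT, 4493 and 6374 in ClkKO and 3231 and 4710 in Cry2KO. The smallest difference, 0.36 in Cry2KO at ZT22, came from 3459 FPKM in the female and 2690 in the male library.

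DPOGS200090 (DPSCF300044, 14968 to 33807) had the steadiest difference, 0.69 ± 0.13 (SD, n = 16), from 1272 to 1689 FPKM in females and from 790.4 to 1018 FPKM in males. By genotype the mean difference was 0.71 in WT, 0.63 in Cry2KO and 0.71 in ClkKO. DPOGS201369 (DPSCF300083, 175998 to 198345) was similar, with 296.3 to 410.1 FPKM in females, 195.1 to 271.4 in males and a mean difference of 0.48 ± 0.16. Both genes rest on many reads, with medians of 19010 and 3246 per female library, and neither overlapped between the sexes. The remaining genes without overlap were DPOGS201372 (13.7 to 23.4 FPKM in females, 8.73 to 13.02 in males) and DPOGS205883 (19.8 to 29.5 in females, 12.4 to 19.5 in males).

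Other genes with large mean differences overlapped between the sexes. DPOGS204891 (DPSCF300307, 84525 to 85325) differed by 1.43 ± 0.71 in WT (SD, n = 8), 0.81 in Cry2KO and 0.27 in ClkKO, with a median of 194.5 FPKM in females and 98.99 in males. This locus is short, and the median values rest on 33.7 and 14.7 reads. DPOGS203061 (DPSCF300392, 18 to 886) was lower in the female library of WT at ZT7 and ZT13 (50.7 against 73.8 and 61.4 against 94.7 FPKM) and higher in the other 14 groups, up to 114.5 against 31.5 FPKM in WT at ZT22. DPOGS208627 ranged from 4.49 to 26.6 FPKM in females and 3.26 to 10.1 in males, and DPOGS203853 from 1.99 to 26.0 and 1.25 to 13.1. The next genes in the order of mean difference were expressed at low to moderate levels. DPOGS215870 had a median of 5.26 FPKM in females and 2.09 in males, and the female library was lower in WT at ZT22 alone (2.73 against 3.46 FPKM). DPOGS202138 had medians of 6.28 and 2.64 FPKM and DPOGS202899 of 3.80 and 1.34 FPKM. For DPOGS211011, a locus of 584 bp, the medians were 26.4 and 17.4 FPKM, and for DPOGS208238, a locus of 787 bp, they were 12.4 and 7.90 FPKM. The longer loci DPOGS209630 (29036 bp) and DPOGS207660 (13824 bp) had medians of 29.8 and 17.6 FPKM and of 21.3 and 11.9 FPKM. In these genes and DPOGS205003 mean differences lay between 0.58 and 0.96, and 4 to 13 male libraries were at or above the lowest female library. DPOGS209630 and DPOGS207660 ran alike over the groups, from -0.36 and -0.24 in Cry2KO at ZT4 to 1.54 and 1.48 in ClkKO at ZT4. They were counted as 2 members, and whether they are separate genes was not analysed here.

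Several genes with smaller differences were above 0 in all 16 groups. DPOGS212191 had 26.1 to 40.6 FPKM in females and 15.6 to 27.3 in males, with a mean difference of 0.54 ± 0.19 (SD, n = 16), and only 2 male libraries reached the lowest female library. DPOGS203381 had 25.7 to 43.0 FPKM in females and 18.2 to 29.2 in males (0.51 ± 0.17), and DPOGS206026 had 74.5 to 117.6 in females and 62.8 to 85.1 in males (0.44 ± 0.23). DPOGS201823, DPOGS216051, DPOGS203382 and DPOGS214038 had mean differences of 0.43, 0.42, 0.40 and 0.54. Within 1 group such a difference came from 1 pair of pools, and it was the repetition over 16 groups that set these genes apart. Over the 42 genes, the SD between groups had a median of 0.42, and it exceeded the mean difference for 4 genes.

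Only 3 of the 42 genes carry a name in the study's annotation, and all 3 names come from its list of rhythmic genes, which was chosen on these same WT libraries. DPOGS204552 (CG1213, a sugar transporter family member in Drosophila) had between 69.8 and 262.3 FPKM in females and between 18.5 and 184.1 in males, with a mean difference of 0.63 ± 0.56 (SD, n = 16). DPOGS203181 (CG3829, a scavenger receptor of the CD36 family in Drosophila) had 4.31 to 12.8 FPKM in females and 3.12 to 9.44 in males. DPOGS205855 (CG15890) had 31.6 to 86.2 FPKM in females and 23.6 to 60.6 in males, and only in WT at ZT22 was the female library lower, with 33.8 against 43.0 FPKM. All 3 genes overlapped between the sexes.

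The 42 genes lay on 36 of the 744 scaffolds with expressed genes, and no scaffold held more than 2 of them. Pairs lay on 6 scaffolds, and 10 genes were within 100 kb of another of the 42. DPOGS203181 and DPOGS203180 on DPSCF300035 were 1273 bp apart, DPOGS216050 and DPOGS216051 on DPSCF300067 were 2410 bp apart, and DPOGS203381 and DPOGS203382 on DPSCF300003 were 16480 bp apart, each without a listed gene between them. The members of these pairs had female medians of 8.82 and 7.21 FPKM for DPOGS203181 and DPOGS203180, 14.7 and 15.9 FPKM for DPOGS216050 and DPOGS216051, and 37.5 and 19.8 FPKM for DPOGS203381 and DPOGS203382. DPOGS204974 and DPOGS205003 on DPSCF300123 (31183 bp) and DPOGS201369 and DPOGS201372 on DPSCF300083 (80063 bp) had 5 listed genes between them in each case, and DPOGS215870 and DPOGS215927 on DPSCF300029 were 596877 bp apart.

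The nearest expressed genes on either side of each member were examined as well. Of 70 such neighbours that were not members, 32 had a mean difference above 0, with a median of -0.01 and a range of -0.42 to 0.84. The neighbours DPOGS208239 of DPOGS208238 (0.84) and DPOGS200091 of DPOGS200090 (0.71) were above the mean threshold but not above 0 in enough groups. DPOGS211010, beside DPOGS211011 on DPSCF300004, was above 0 in 16 of 16 groups and missed the mean threshold with 0.3963.

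The rule did not use the locus span, while the level entered it through the minimum of 3 FPKM and the added 1. The median level of the 42 genes was 14.3 FPKM against 17.1 for all, and 38.1% of them against 31.6% had a mean FPKM under 10. Their median locus span was 4942 bp against 3318 bp, with a range of 322 to 29036 bp. The loci of DPOGS202899, DPOGS201372 and DPOGS215927 each overlapped another listed locus, and reads of such a pair may have been shared between its genes. Near-identical copies elsewhere in the genome would share reads as well, since 1 location was kept per read, and which genes have such copies was not analysed here.

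Just inside the mean threshold lay DPOGS201110 (0.4001), DPOGS203382 (0.4022) and DPOGS203180 (0.4114). Just outside, besides DPOGS211010, lay DPOGS206152 (0.3889) and DPOGS206718 (0.381), and 12 genes had at least 14 groups above 0 with a mean between 0.35 and 0.4. Just inside the threshold on groups, with 14, lay DPOGS204891, DPOGS203061 and DPOGS209630. Just outside, with 13 of 16 groups, lay 28 genes with a mean of at least 0.4, led by DPOGS213566 (2.60, median 151.2 FPKM in females and 24.2 in males), DPOGS203963 (2.07) and DPOGS210673 (1.29).

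By genotype, the median of the 42 mean differences was 0.64 in WT, 0.51 in Cry2KO and 0.50 in ClkKO. At the 4 times shared with the knockouts it was 0.65 in WT, and 27 of 42 genes had a larger mean difference in WT than in Cry2KO and 30 of 42 a larger one than in ClkKO. All 42 means were above 0 in WT and in ClkKO, and 41 in Cry2KO, where DPOGS215927 had a mean of -0.01. DPOGS202991 went from 0.85 in WT to 0.22 in Cry2KO and 0.27 in ClkKO, whereas DPOGS202899 was at 0.90 in WT, 0.43 in Cry2KO and 1.12 in ClkKO. These differences between genotypes were not tested, since all groups served to choose the genes.

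By time of day in WT, the median over the 42 genes lay between 0.56 at ZT16 and 0.83 at ZT4, and was 0.66 for ZT1 to ZT13 and 0.64 for ZT16 to ZT22. In WT at ZT10 and ZT19 and in Cry2KO at ZT16 all 42 genes were above 0. In the knockouts the median was lowest at ZT22, with 0.40 in Cry2KO and 0.32 in ClkKO against 0.70 in WT. Between 42.1% and 54.3% of all expressed genes outside the 2 scaffolds were above 0 in any 1 group.

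**Figure D3:**
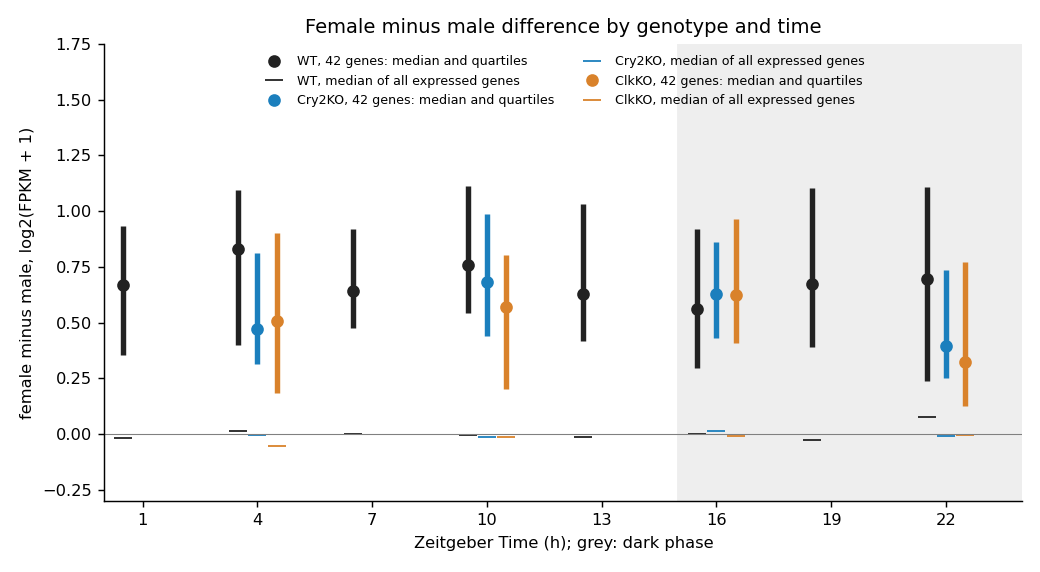
Median (point) and quartiles (bar) of the female minus male difference of the 42 genes at each time in WT, Cry2KO and ClkKO, with the median of all expressed genes outside the 2 scaffolds as a short line. The medians of the 42 genes lie between 0.32 and 0.83, and those of all genes lie near 0.

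Whether female-high genes chosen in some libraries were also female-high in others was tested by choosing genes in WT or in the knockouts alone. WT alone (above 0 in at least 7 of 8 groups with a mean of at least 0.4) gave 163 genes, 36 of them among the 42. In the 16 knockout libraries, 15 of these 163 genes (9.20%) were called higher in females at an adjusted p of 0.05 (limma, Benjamini-Hochberg over 10412 genes), against 0.298% of all genes, and 0 were called lower. Unadjusted, 49 of the 163 genes were higher in females at p under 0.05. Their median difference in the knockouts was 0.19, while it had been 0.60 in WT. The mean was above 0 for 118 of 163 genes, against 45.9% of all genes outside the 2 scaffolds, and 39 were above 0 in at least 7 of 8 knockout groups, against 4.56%.

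Of the 15 genes, 14 were among the 42, an overlap that the rule nearly fixed, since it also used the knockout libraries. The smallest adjusted p-values in the knockouts belonged to DPOGS213736 (2.39 ± 0.12, standard error, adjusted p = 5.9e-05), DPOGS200090 (0.67 ± 0.04, adjusted p = 0.00034) and DPOGS201372 (0.63 ± 0.05, adjusted p = 0.0021), all from limma with Benjamini-Hochberg adjustment. The single gene outside the 42 was DPOGS211010 (0.34, adjusted p = 0.0303, limma), named above for its mean just under the threshold. Most genes chosen on WT alone thus did not pass the test in the knockouts.

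Choosing on the knockouts alone gave 71 genes, 29 of them among the 42. In the 16 WT libraries 19 of the 71 (26.8%) were called higher in females (limma, adjusted p of 0.05), against 0.682% of all genes, and 0 were called lower. All 19 were among the 42, which the rule nearly fixed, since it also used these WT libraries. The filter on expression used the WT libraries, females included, and 6 of the 71 genes reached 3 FPKM in no WT male library and had thus passed through WT females alone. Of these 6, DPOGS213736, DPOGS209204 and DPOGS204974 were among the 19, and their calls are no test. Without the 6 genes, 16 of 65 were called, a count chosen after seeing the data. Among these 16 were DPOGS214841 (1.23 ± 0.08, standard error, adjusted p = 9.4e-05), DPOGS200090 (0.71 ± 0.06, adjusted p = 0.00074) and DPOGS201369 (0.55 ± 0.05, adjusted p = 0.0029), all from limma with Benjamini-Hochberg adjustment. The mean was above 0 in WT for 57 of 71 genes, against 51.0% of all, and 30 were above 0 in at least 7 of 8 WT groups, against 7.82%. Both counts include the 6 genes that passed the filter through WT females alone, and for these they are no test. Over all 71 genes, these 6 included, leaving out 1 WT library left 9 to 20 genes called, against 19 to 132 of all 10412 genes. The lowest count came without the WT ZT4 male library.

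**Figure D4:**
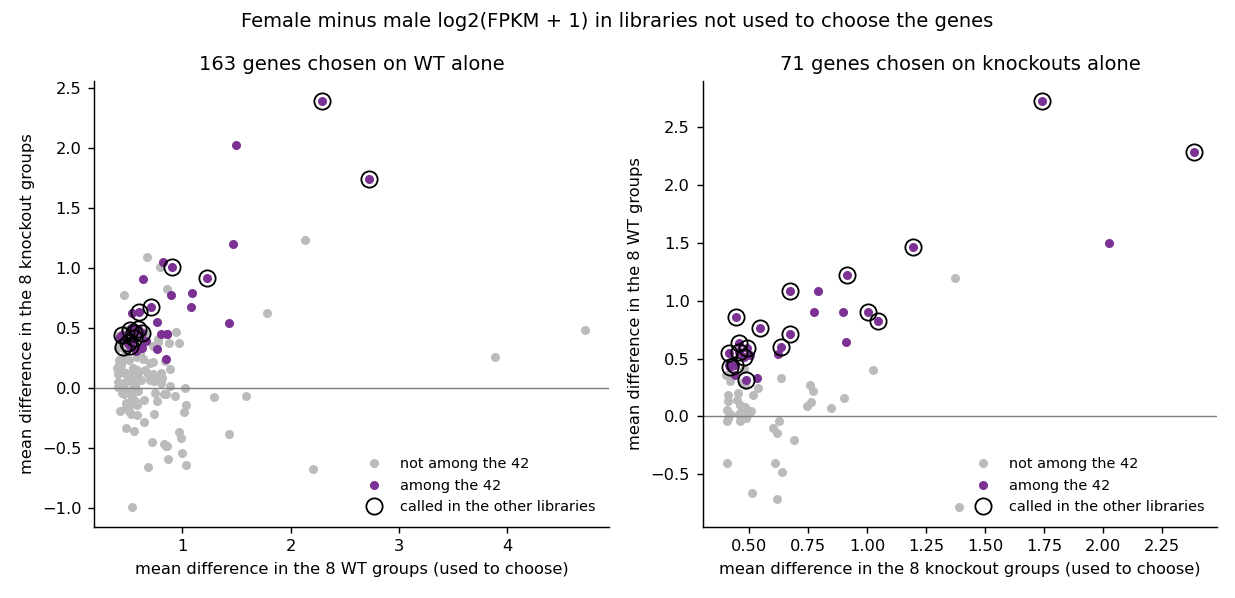
Mean female minus male difference of log2(FPKM + 1) in the libraries not used for choosing (y axis) against that in the libraries used (x axis), for 163 genes chosen on WT alone (left) and 71 genes chosen on the knockouts alone (right). Purple points are among the 42 genes, and circles mark the 15 and 19 genes called in the other libraries, the 19 including the 3 genes that passed the filter through WT females alone.

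The level of the 42 genes in the knockouts was compared with WT at the 4 shared times, over 8 against 8 libraries with time and sex as terms, so that the comparison is balanced over the sexes (limma on centred log2(FPKM + 1), adjusted p of 0.05 over 10412 genes). In Cry2KO 4 of the 42 genes (9.52%) were higher and 4 (9.52%) lower, against 2.51% and 3.38% of all genes. The median change of the 42 genes was -0.0006, against -0.0042 for all genes. At an unadjusted p under 0.05 there were 14 genes (33.3%, against 22.3% of all). Without sex as a term, which here is the replicate block, 3 of the 42 genes were called in place of 8. Over all 10412 genes, 528 were called in place of 613. The 42 genes were chosen to differ by sex, and the part of this in the blocked calls was not tested.

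Other gene lists differed between these libraries too. The summed FPKM of 10 heat shock genes, most of which encode chaperones or their partners, was 971.8 to 1657 in Cry2KO against 479.0 to 848.6 in WT, without overlap. Of the 10, 5 were called higher and 0 lower (limma, adjusted p of 0.05). Of 5 eye genes 3 were called lower in Cry2KO and 0 higher, with sums of 157.8 to 197.0 against 184.6 to 263.8 FPKM. In the other lists 1 of 5 glial genes was called lower, and 1 of 7 neuronal and 1 of 3 muscle genes higher, and the sums of all lists but heat shock overlapped with WT. The neuronal, glial, eye and muscle genes were taken from the study's list of rhythmic genes, so that their calls do not measure cell content alone. The heat shock genes, as stated above, were annotated by the study in lists of rhythmic genes as well. The part of these lists in the changes of the 42 genes was not tested.

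DPOGS213924 (DPSCF300218, 274417 to 279346) fell in Cry2KO, with 18.2 to 37.4 FPKM (median 26.8) against 43.7 to 120.9 FPKM (median 68.2) in WT. The libraries of the genotypes did not overlap, and the change was -1.28 ± 0.11 (standard error, limma adjusted p = 0.00010), lower in 8 of 8 pairs. DPOGS203061 (-1.04, adjusted p = 0.0159), DPOGS203853 (-1.50, adjusted p = 0.0229) and DPOGS207660 (-0.76, adjusted p = 0.0404) also fell (limma). In the order given, the changes of these 3 genes were -1.41, -1.84 and -0.99 in females and -0.66, -1.16 and -0.54 in males. Changes within a sex were not tested. The call of DPOGS207660 was kept in only 2 of 16 fits that each left out a library, with adjusted p-values of 0.0145 to 0.0876 (limma). DPOGS209630, which ran alike with it, changed by -0.79 and was not called (limma adjusted p = 0.0584).

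DPOGS214038 (DPSCF300238, 225087 to 228658) rose in Cry2KO by 0.55 ± 0.08 (standard error, limma adjusted p = 0.0019), in 8 of 8 pairs. Females had 14.8 to 15.6 FPKM against 8.40 to 13.02 in WT, and males 9.41 to 11.9 against 6.54 to 8.13, without overlap in either sex. DPOGS215927 rose by 1.18 ± 0.26 (limma adjusted p = 0.0216), from a median of 6.20 FPKM in WT to 13.5 FPKM, in 8 of 8 pairs, and its locus overlaps another. DPOGS201372 (0.35, adjusted p = 0.0116) and DPOGS203382 (0.25, adjusted p = 0.0289) rose as well (limma). The call of DPOGS203382 was kept in 6 of 16 fits without a library, and it was lost without centring (limma adjusted p = 0.104). Without the replicate block DPOGS213924, DPOGS215927 and DPOGS203853 were the genes called.

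In ClkKO 3 of the 42 genes (7.14%) were higher and 2 (4.76%) lower than in WT, against 1.53% and 2.01% of all genes. The median change was 0.08 against -0.01 for all genes, and 12 genes had an unadjusted p under 0.05 (28.6%, against 20.2% of all). Without the replicate block only DPOGS205855 of the 42 genes was called, while over all genes 309 were called in place of 368. Fits that each left out a library called 2 to 6 of the 42 genes and 158 to 547 of all genes. Of the marker lists, 2 of 5 eye genes and 1 of 5 glial genes were called lower in ClkKO (limma, adjusted p of 0.05) and none was called higher, heat shock genes included. The sums were 163.2 to 197.8 FPKM for eye genes, against the WT range above, and 467.2 to 776.3 FPKM for glial genes, against 659.8 to 1005 in WT. Both lowest sums came from the ClkKO ZT4 male library, and the next glial sum in ClkKO was 585.1. The part of these lists was not tested.

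DPOGS214038 rose in ClkKO by 0.61 ± 0.11 (standard error, limma adjusted p = 0.0139), in 7 of 8 pairs. Its FPKM was 12.4 to 20.3 in females and 9.18 to 13.8 in males, against the WT ranges above, with overlap in females but not in males. DPOGS212191 (0.37, adjusted p = 0.0265) and DPOGS201110 (0.44, adjusted p = 0.0462) rose in 8 of 8 pairs (limma). DPOGS205855 (CG15890) fell by 0.71 on the log2 scale (limma adjusted p = 0.0186), lower in 8 of 8 pairs, from a median of 50.6 FPKM in WT to 28.8 FPKM. DPOGS203853 fell as well (-0.85, limma adjusted p = 0.0376). The calls of DPOGS201110 and DPOGS203853 were kept in 4 of 16 fits without a library, and that of DPOGS212191 in 11. That of DPOGS201110 was also lost without centring (limma adjusted p = 0.108) and, more narrowly, with a pseudocount of 0.1, a minimum of 1 FPKM or no intensity trend (limma adjusted p of 0.0504, 0.0521 and 0.0522).

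Both knockouts were set against the same WT libraries, so that values shared between them are not independent. DPOGS213924 had a change of -1.28 in Cry2KO and -0.07 in ClkKO, and DPOGS212191 of -0.01 and 0.37. DPOGS214038 had 0.55 and 0.61, and DPOGS203853 had -1.50 and -0.85. DPOGS205855 had -0.48 in Cry2KO, which did not pass the test (limma adjusted p = 0.0961), and -0.71 in ClkKO. None of the genes with the 5 largest sex differences was called in either strain (limma adjusted p of 0.192 or more), although for DPOGS213644 the change in Cry2KO was 1.15 ± 0.50 (standard error). This change is averaged over the sexes, and 4 of these genes were seldom read in males. In Cry2KO it was -1.32 in females and 0.23 in males for DPOGS209204, and 2.22 and 0.09 for DPOGS213644. Changes within females were not tested.

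**Figure D5:**
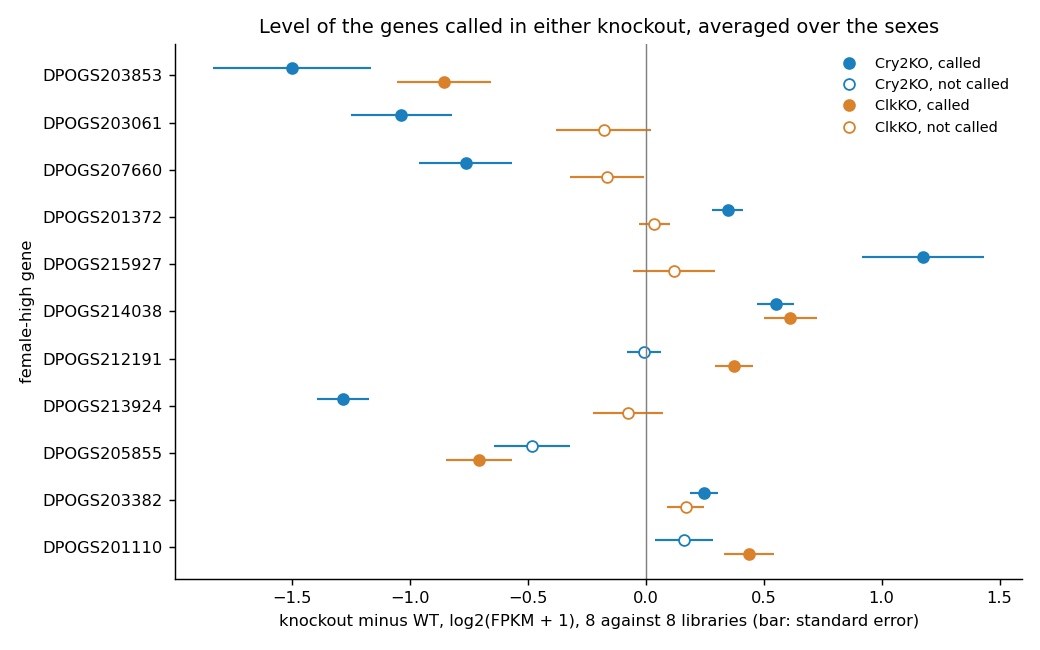
Knockout minus WT change in log2(FPKM + 1), averaged over the sexes, of the 11 genes called in either strain, for Cry2KO (blue) and ClkKO (orange), with bars of 1 standard error, and filled points where the change was called. DPOGS213924 lies at -1.28 in Cry2KO and at -0.07 in ClkKO, and DPOGS214038 to the right of 0 in both.

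A rhythm of 24 h in WT was called for 1 of the 42 genes (2.38%, against 0.98% of all genes), by harmonic regression over the 16 WT libraries with sex as a term (limma moderated F test, adjusted p of 0.05 and a maximum/minimum of at least 1.3). This gene was DPOGS205855 (CG15890), for which the fitted range was 0.94 log2 units with a peak at ZT14.2 (limma adjusted p = 0.0107). The study had listed it as rhythmic from these libraries, so that the call is not independent evidence. Its FPKM was highest at ZT10, ZT13 and ZT16, with 86.0, 86.2 and 85.4 in females and 51.8, 59.3 and 60.6 in males, and lowest in females at ZT22 with 33.8 and in males at ZT4 with 32.4. Females were above males at 7 of 8 times. It stayed called whichever of the 16 libraries was left out, but not without the replicate block (limma adjusted p = 0.187).

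Of the other named genes on the list of rhythmic genes, DPOGS204552 (CG1213) had a fitted range of 1.59 log2 units (limma adjusted p = 0.0539) and DPOGS203181 (CG3829) of 0.89 (limma adjusted p = 0.170), and neither passed the test. DPOGS204552 was lowest at ZT10 and ZT13, with 37.5 and 18.5 FPKM in males and 69.8 and 95.1 in females, and highest at ZT22, with 136.1 and 189.4. At an unadjusted p under 0.05 there were 10 of the 42 genes (23.8%, against 9.14% of all), and the median fitted range of all 42 was 0.34 log2 units against 0.20 for all expressed genes. In the WT ZT22 group 7 of the 42 genes were not higher in the female library. Without that library 2 of the 42 genes were called rhythmic in place of 1, and 219 of all 10412 genes in place of 102.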

How the data were processed

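RNA-seq of 32 libraries was analysed from the FPKM that the authors deposited per gene and library. The submitters' processing notes name CASAVA 1.8.2 for the reads, and the authors had aligned them to monarch assembly v3 using TopHat2 (1 location per read), and FPKM with a 95% interval came from Cufflinks, whose versions are not given in the sources used here. The library kit was directional, and the strand setting of the counting was not stated. The files hold no counts, so no count model was used. Reads were recovered from the interval, and 82.5% of values under 30 reads came out whole (tolerance 0.05). No filter on low values had been applied to the 15130 listed genes, and no 2 libraries were identical.

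Values were transformed to log2(FPKM + 1) and centred on each library's median over expressed genes outside DPSCF300001 and DPSCF300012. Levels, rhythms and sex differences were fitted with limma 3.58.1 in R 4.3.3 (intensity trend, Benjamini-Hochberg adjustment over 10412 expressed genes), and the code was tested on simulated data. Sex, which coincides with the replicate number, was a term of the level and rhythm fits. Nothing says that equal numbers share animals or a batch. RAIN and MetaCycle, which the study used for rhythms, were not installed. Other steps used Python 3.11.15 with numpy 2.4.6 and pandas 2.3.3, and matplotlib 3.10.9 for figures. Alternatives were a pseudocount of 0.1, no centring, quantile normalization, other filters, other choices of groups, no intensity trend, no replicate block and each library left out.

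The members and lists were chosen with earlier results of these data known. Named genes were the 20 with the largest mean difference, those the study names, the called genes with the smallest adjusted p (up to 3 per direction) and the 3 genes on either side of each threshold. Other genes were named after their values were seen, where they lay without overlap, in pairs or beside members. Replicate pools are separate samples in the labels. Gene names were taken from the study alone, since 0 identifiers matched the RefSeq gene table.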

Additional observations from a re-analysis of the deposited data

Results flagged for a closer look

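Within the groups of a genotype, the female minus male difference of the 29 named members was examined for a group that lay far from the rest (Dixon's ratio). In unselected normal values about 1 of 20 sets holds such a group. The members were chosen by these same differences, so that this rate is no reference for them. Of 87 sets, 5 (5.75%) held such a group, and 3 of these were WT at ZT22. Over all expressed genes outside the 2 scaffolds, the SD of the difference was 0.53 to 0.62 in the other groups and 0.83 in WT at ZT22. There, DPOGS202899 had a difference of -0.74 (0.735 FPKM in the female and 2.23 in the male library), against 0.51 to 1.57 at the other WT times, and DPOGS205855 had -0.18 against 0.50 to 0.75. DPOGS200090 was instead higher there, with 1.08 against 0.58 to 0.76 (1689 and 892 FPKM). DPOGS204552 had a difference of 2.29 in WT at ZT13 (95.1 and 18.5 FPKM), against 0.07 to 1.07 at other times. In Cry2KO at ZT4, DPOGS211011 differed by 2.31 (47.4 and 8.18 FPKM), against 0.87 to 0.97 at the other 3 times.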

How the results depend on the processing

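The number of female-high genes was 51 with a pseudocount of 0.1, 49 without centring (38 of the 42 shared), 45 with quantile normalization, and 35 to 50 with other filters. It was 14 when all 16 groups had to be above 0, 163 on the WT groups alone and 71 on the knockout groups alone, and between 40 and 57 when a library, and with it its group, was left out. Without centring DPOGS204891, DPOGS215927, DPOGS216050 and DPOGS203180 were lost.

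Without the replicate block, members called numbered 3 in Cry2KO in place of 8, 1 in ClkKO in place of 5 and 0 for the rhythm in place of 1, and the blocked fits are those reported. Over all 10412 genes, 528 were called in place of 613, 309 in place of 368 and 82 in place of 102. The cause was not tested. With a library left out, Cry2KO gave 5 to 10 (5 without the ZT4 female or the ZT22 male Cry2KO library), ClkKO 2 to 6 and the rhythm 1 to 2 (2 without the WT ZT1 female, ZT13 male or ZT22 female library). Over all 10412 genes these fits called 349 to 1112, 158 to 547 and 67 to 219. For ClkKO, 2 genes were left without the ClkKO ZT10 female, ClkKO ZT22 male or WT ZT16 male library, and 3 without any 1 of 8 others (both WT ZT4, both ClkKO ZT4, WT ZT10 female, ClkKO ZT10 male, ClkKO ZT16 female and ClkKO ZT22 female). Genes chosen on WT alone gave 11 to 17 calls in the knockouts, and genes chosen on the knockouts alone 9 to 20 in WT, with 9 to 12 without either library of WT ZT4, ZT10, ZT13 or ZT19 or the male library of ZT1. The genes chosen on the knockouts alone include those that passed the filter through WT females alone, whose calls in WT are no test. Over all 10412 genes these fits called 14 to 26 higher in females in the knockouts and 19 to 132 in WT. Of the genes chosen on the knockouts alone, 16 were called among those with 3 FPKM in a WT male library, an alternative added after seeing the data. Among the 14 calls of single members, no alternative reversed a direction. The pseudocount of 0.1 moved the sex difference of 4 members by more than their spread over groups.

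Depth limits members with few reads (median half-width of the interval over members 25.5% of the value), and 2 libraries per genotype and time leave single times without replication within a sex.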
